A study of Homo sapiens with 8 samples.

Results

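The transcripts of the polypyrimidine tract binding protein (PTB) family, PTBP1, PTBP2 and PTBP3, were examined as RNA targets of PTB itself. Members were peaks on the strand of the gene that overlapped the hg19 interval of PTBP1 (chromosome 19, 797075 to 812327, plus strand), PTBP2 (chromosome 1, 97187174 to 97289294, plus strand) or PTBP3 (chromosome 9, 114979995 to 115095947, minus strand). The intervals span 15253, 102121 and 115953 nt. They held 96 of the 266317 peaks in the 5 deposited lists: 36 in PTB UVC, 32 in PTB UVA, 19 in PTB iCLIP, 7 in PTB without UV and 2 in YFP UVC.

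The lists come from GoldCLIP, a gel-free form of crosslinking and immunoprecipitation (CLIP), which maps where a protein contacts RNA in living cells. The 8 samples are 293T cells, a human embryonic kidney line, in 4 groups of 2: Halo-PTB cells crosslinked with UVC, Halo-PTB cells crosslinked with UVA, Halo-PTB cells without UV, and Halo-YFP cells crosslinked with UVC. The Halo tag bonds covalently to a ligand on beads, and all cells carried a tagged transgene under puromycin. Each group has a single pooled peak list, and a separate list holds peaks that the submitters derived from all samples of a published PTB iCLIP study. Neither the promoter nor the isoform of the Halo-PTB transgene is given in the labels, and its RNA, where it matches PTBP1, cannot be told apart from that of the endogenous gene in these lists.

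PTB is a splicing repressor with RNA recognition motifs that bind pyrimidine-rich RNA. PTBP1 makes the form present in most cells, PTBP2 the form enriched in neurons, and PTBP3 a paralog first described in blood cells. The family is known for controlling its own supply: PTBP1 promotes skipping of an internal exon in its own transcript and in that of PTBP2, and the resulting transcripts are degraded by nonsense-mediated decay. PTBP3 splicing is also known to depend on PTBP1. No exon annotation or genome sequence of hg19 was used here, so sites are given by chromosome position and by position in the interval, counted from 1 at its 5′ end, and are not assigned to exons, introns or UTRs.

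Peaks on a common strand separated by at most 20 nt were joined into sites, since some of them touched. Beside the 96 member peaks, the opposite strand of the 3 intervals held 0 peaks in the 5 lists. In PTBP1 there were 13 sites in the PTB UVC list, 12 in PTB UVA, 6 in PTB iCLIP, 2 in PTB without UV and 0 in YFP UVC. In PTBP2 the counts were 3, 2, 5, 2 and 0 in the same order of lists. In PTBP3 they were 15, 2, 7, 0 and 1. Sequencing depth is unknown, each list is a single value without replicates, and no test between conditions was possible.

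**Figure D1:**
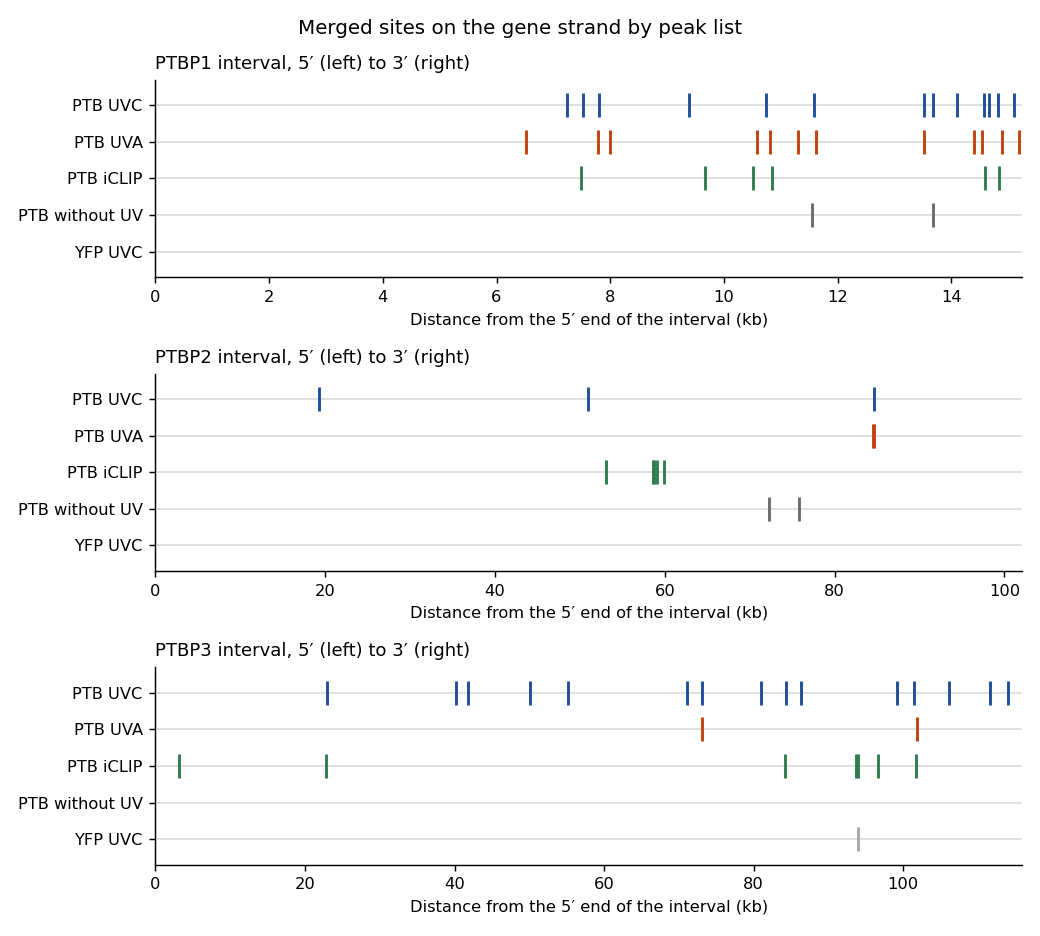
Each tick is the centre of a merged site on the gene's strand, placed by distance in kb from the 5′ end of the interval, with a row for each of the 5 peak lists. PTBP1 sites begin 6517 nt into the interval, PTBP2 has few sites, with those of PTB iCLIP and of PTB UVA each close together, and PTBP3 carries 15 PTB UVC sites spread over most of its length.

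Relative to its length PTBP1 was the most densely occupied of the 3 transcripts in each PTB list. It makes up 6.54% of the nucleotides of the 3 intervals and held 41.9% of their PTB UVC sites (exact Clopper-Pearson 95% interval 24.5 to 60.9), 75.0% of their PTB UVA sites (interval 47.6 to 92.7) and 33.3% of their PTB iCLIP sites (interval 13.3 to 59.0). The PTB UVC density was 8.52 sites per 10 kb in PTBP1 (exact Poisson 95% interval 4.54 to 14.6), 0.294 in PTBP2 (interval 0.0606 to 0.859) and 1.29 in PTBP3 (interval 0.724 to 2.13). The PTB UVA density was 7.87 per 10 kb in PTBP1 (interval 4.06 to 13.8), 0.196 in PTBP2 (interval 0.0237 to 0.707) and 0.172 in PTBP3 (interval 0.0209 to 0.623). For PTB iCLIP it was 3.93 in PTBP1 (interval 1.44 to 8.59), 0.490 in PTBP2 (interval 0.159 to 1.15) and 0.604 in PTBP3 (interval 0.242 to 1.24). In each PTB list the interval of PTBP1 did not overlap those of PTBP2 and PTBP3, while those of PTBP2 and PTBP3 overlapped each other. All these intervals cover counting error only. Densities also follow the length of a list. As a share of each list, the 3 genes held 0.0304% of PTB UVC, 0.0382% of PTB UVA and 0.0326% of PTB iCLIP peaks, against 0.184% of the peaks without UV (7 peaks) and 0.0936% of YFP UVC peaks (2 peaks), so the controls had the larger shares. The lists hold no RNA levels, so more binding per transcript and more transcript cannot be told apart.

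The site counts were also set against the whole genome, the 3 genes included, tiled into windows as long as each gene. Only windows with at least 1 site of the list were counted. The windows do not follow the borders of genes, whereas the 3 intervals do. Only 0.186% of such windows held as many PTB UVC sites as PTBP1 or more, and the median window held 2. For PTB UVA the share was 1.59% and for PTB iCLIP 8.38%, also with a median of 2. PTBP2 was an ordinary window: 64.3% of windows of its length matched its 3 PTB UVC sites, 70.5% its 2 PTB UVA sites and 37.2% its 5 PTB iCLIP sites. PTBP3 stood between for PTB UVC, with 8.01% of windows holding 15 sites or more, but 71.6% matched its 2 PTB UVA sites and 26.0% its 7 PTB iCLIP sites. These shares are descriptions of the lists, not tests.

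**Figure D2:**
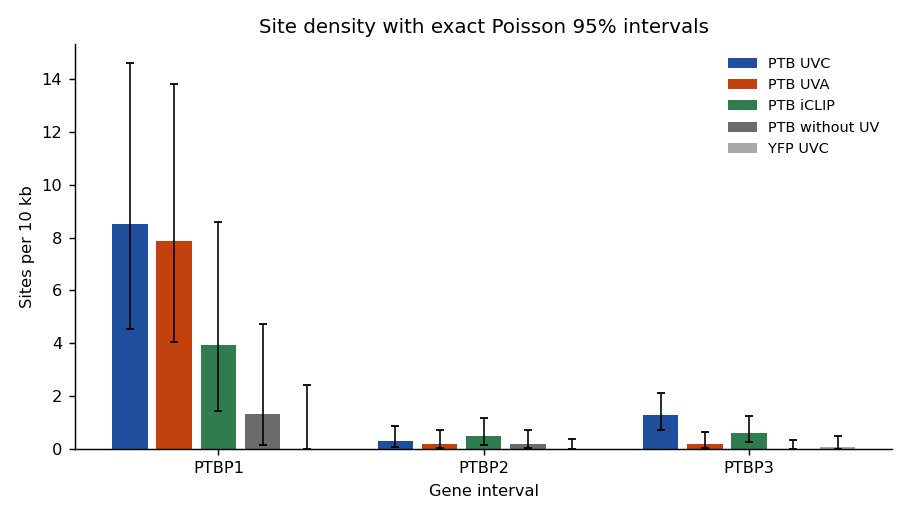
Bars give merged sites per 10 kb of each interval for the 5 peak lists, and lines give exact Poisson 95% intervals, which cover counting error only. PTBP1 reaches 8.52 per 10 kb in PTB UVC and 7.87 in PTB UVA, against 1.31 in PTB without UV and 0 in YFP UVC, lists of very unequal length.

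PTBP1, the autoregulatory case, carried its sites in the 3′ part of its interval. No PTB list had a site in the first 6516 nt, which are 42.7% of the interval. Of 10 equal segments of the interval, the last, from position 13729 to 15253, had the most sites, with 5 in PTB UVC and 4 in PTB UVA. In PTB iCLIP this segment and that from position 9153 to 10677 held 2 sites each. The last 1000 nt were reached by 4 PTB UVC, 4 PTB UVA and 2 PTB iCLIP sites.

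**Figure D3:**
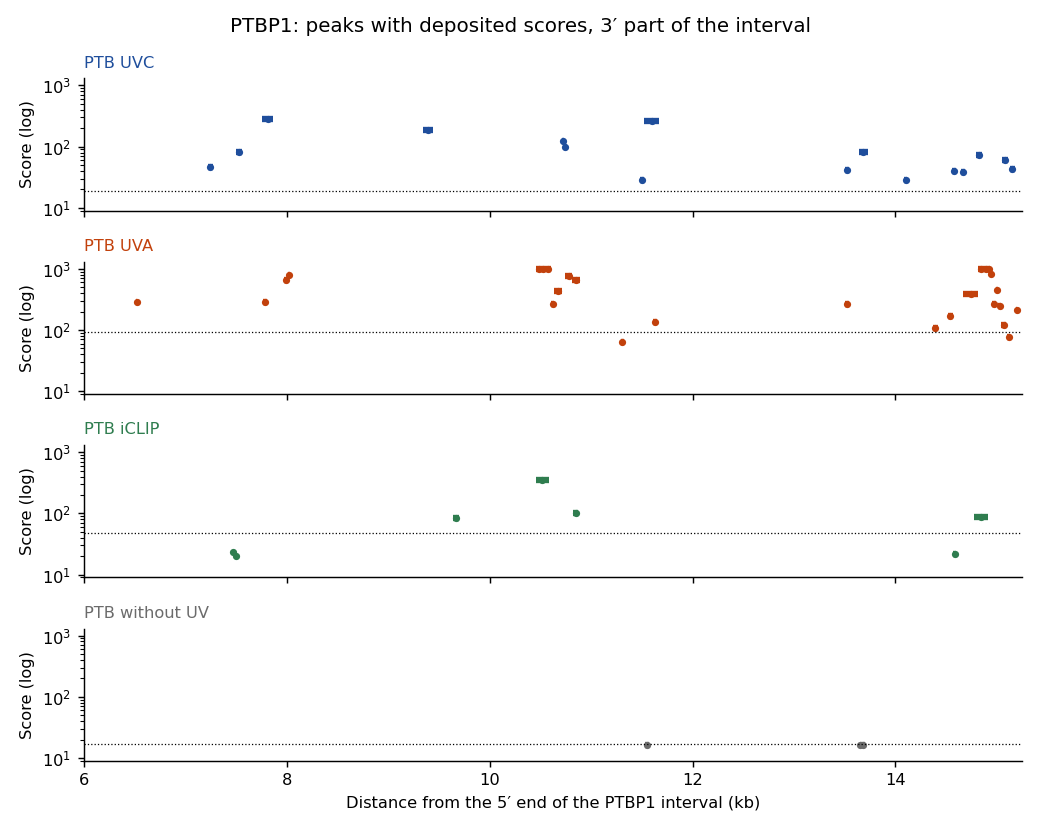
Each line is a deposited peak in PTBP1, drawn over its width in kb from the 5′ end of the interval and at the height of its score on a log axis (4 PTB UVA peaks deposited with a score of 0 are drawn at 1000), with a dot at its centre and a dotted line at the median score of the whole list. PTB UVA peaks reach the score limit of 1000 at positions 10459 to 10606 and 14819 to 14935, where PTB iCLIP peaks score 350 and 88. Both PTB without UV sites lie outside these positions and score 16.

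The score of a peak is the authors' own. It was read as 10 times the negative log10 of the deposited p-value, rounded down and limited to 1000, and it ranks peaks within a list only. In PTBP1 the 16 PTB UVC peaks scored between 29 and 284 with a median of 67, all at or above the list median of 19, as were 50.9% of the whole list. Of these peaks 4 scored above 100, against 1.93% of the PTB UVC list. In PTB UVA 4 peaks, at positions 10515 to 10606 and 14879 to 14935, were deposited with a score of 0 and a p-value of 0. They were set to 1000, and the values given here for PTB UVA rest on that. The 27 PTB UVA peaks then scored between 63 and 1000 with a median of 391. The list median of 92 was reached by 25 of them (50.1% of the whole list), and 25 scored above 100 (47.3% of the whole list). PTB iCLIP scores were more mixed, from 20 to 350 over 7 peaks with a median of 83. Of these, 4 reached the list median of 47 (50.7% of the whole list) and 2 scored above 100 (24.0% of the whole list).

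A long stretch of PTB sites in PTBP1 lay between positions 10457 and 10887 (chromosome 19, 807531 to 807961), a combined region of 431 nt built from 11 peaks of all 3 PTB lists. PTB UVA contributed a site of 254 nt at positions 10459 to 10712, in which 3 of 5 touching peaks were at the score limit, and a site of 144 nt at 10744 to 10887 with a top score of 750. PTB iCLIP contributed its highest PTBP1 peak, 124 nt wide at positions 10457 to 10580 with a score of 350, which 2.82% of that list reached. A further PTB iCLIP peak at 10826 to 10870 scored 103. Both iCLIP peaks lay almost wholly within the UVA sites, sharing 122 and 45 nt with them. PTB UVC contributed a site of 50 nt at positions 10712 to 10761 with a top score of 123, reached by 1.46% of its list. It filled the space between the UVA sites, sharing 1 nt with the first and 18 nt with the second, and shared none with either iCLIP peak. No control site lay in this stretch.

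The other long stretch was at the 3′ end, from position 14643 to 15195 (chromosome 19, 811717 to 812269), 553 nt long and built from 16 peaks. PTB UVA covered positions 14668 to 15134 as a single site of 467 nt with 10 peaks, 3 of them at the score limit. PTB iCLIP had a peak of 137 nt inside it, at 14780 to 14916, with a score of 88. PTB UVC had 3 smaller sites here, of 45, 53 and 125 nt, with top scores of 39, 73 and 61. The UVC site at 14798 to 14850 lay wholly inside both the UVA site and the iCLIP peak. Just upstream, at positions 14519 to 14599, a region of 81 nt held peaks of all 3 lists with scores of 40 (UVC), 167 (UVA) and 22 (iCLIP). There the UVC site shared 5 nt with the UVA site and 22 nt with the iCLIP site. The UVA and iCLIP sites did not overlap and were 7 nt apart. No control site lay in either of these regions.

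The 3 highest PTB UVC peaks of PTBP1 were elsewhere. The first, at positions 7759 to 7861 (chromosome 19, 804833 to 804935), scored 284, which 0.545% of the list reached, and enclosed a PTB UVA peak of 38 nt with a score of 289. The second, at 11523 to 11669 (808597 to 808743), scored 262 and enclosed a PTB UVA peak of 35 nt with a score of 134. The third, at 9339 to 9439 (806413 to 806513), scored 186 and overlapped no site of another list. A PTB UVA site at positions 7970 to 8029, with a top score of 804, likewise had no partner, and neither did the PTB iCLIP site at positions 9635 to 9699, with a score of 83. The remaining PTB UVA sites without a partner, at positions 6517 to 6526, 11297 to 11321, 14367 to 14419 and 15194 to 15195, scored 290, 63, 107 and 216. The PTB UVC sites at 7219 to 7271 and 14086 to 14116, with scores of 46 and 29, also stood alone. At positions 13503 to 13543 a PTB UVC site with a score of 41 and a PTB UVA site with a score of 265 shared 35 nt. At 7467 to 7556 a PTB UVC site with a score of 81 shared 10 nt with a PTB iCLIP site whose top score was 23.

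PTB without UV gave 2 sites in PTBP1, both with a score of 16, at positions 11531 to 11573 and 13647 to 13695. Both lay inside PTB UVC sites, whose top scores were 262 and 82, and neither met a PTB UVA or PTB iCLIP site. Over the whole list 17.7% of the sites without UV overlapped a PTB UVC site. Seen from the other side, 2 of 13 PTBP1 sites of PTB UVC lay on a control site, against 0.784% of all PTB UVC sites. None of the 12 PTB UVA sites and none of the 6 PTB iCLIP sites of PTBP1 did, where the whole lists had 0.766% and 0.465%. The part that background recovery plays in the 2 PTB UVC sites was not tested.

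PTBP2, the neuronal paralog and the textbook cross-regulated target, carried few sites. PTB UVC and PTB UVA met in a single short stretch, and the PTB iCLIP sites lay elsewhere. PTB UVC had sites at positions 19219 to 19257, 50927 to 50969 and 84571 to 84603, with scores of 66, 86 and 65. These were high for the list, since scores as high were reached by 3.89%, 2.49% and 3.97% of its peaks. PTB UVA had sites only at positions 84498 to 84534 and 84603 to 84630 (chromosome 1, 97271671 to 97271707 and 97271776 to 97271803), with top scores of 1000 and 947. Scores as high were reached by 3.36% and 3.68% of the PTB UVA list. All 3 PTB UVC and all 3 PTB UVA peaks of PTBP2 were thus above the median of their list. Of the whole lists, 50.9% of PTB UVC and 50.1% of PTB UVA peaks were at or above it.

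The third PTB UVC site (chromosome 1, 97271744 to 97271776) lay between the PTB UVA sites, 37 nt from the first and sharing 1 nt with the second. These 3 sites fell within 133 nt of an interval of 102121 nt. The nearest PTB iCLIP site was 24518 nt or more from the PTB UVA sites, and no control site lay among them.

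**Figure D4:**
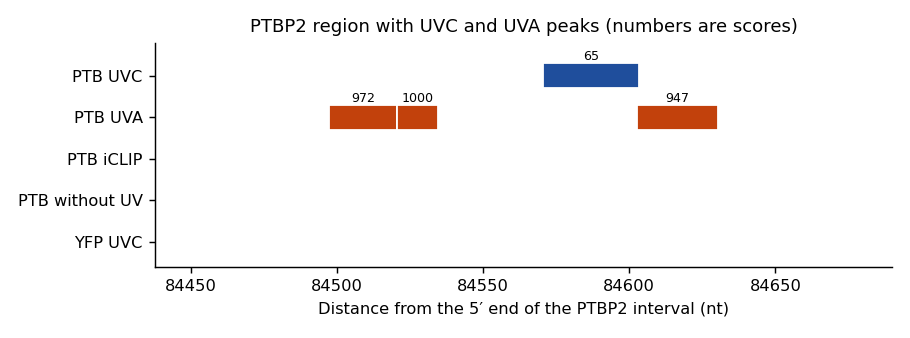
Boxes are the deposited peaks of PTBP2 around positions 84498 to 84630 of the interval, in nt from its 5′ end, with a row per list and the score above each box. The PTB UVC peak with a score of 65 lies between PTB UVA peaks with scores of 972, 1000 and 947, and the other 3 lists have no peak here.

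The PTB iCLIP sites of PTBP2 lay in another place. All 5 of its sites fell in the segment from position 51061 to 61273, and 4 of them lay within positions 58614 to 59980 (chromosome 1, 97245787 to 97247153). Their scores were 267, 217, 382 and 467 from 5′ to 3′. The other site, at positions 53089 to 53122, scored 614, which 0.977% of the iCLIP list reached and which was the highest iCLIP score in the 3 genes. None of the 5 overlapped a PTB UVC or PTB UVA site, and the nearest PTB UVC site was 2120 nt away. PTB without UV had 2 sites of 50 nt, at positions 72198 to 72247 and 75799 to 75848, both with a score of 16, and these met no other list.

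PTBP3 showed the widest difference in site counts between the PTB UVC and PTB UVA lists. Its 15 PTB UVC sites were scattered from position 22933 to 114002, with a median space of 4822.5 nt between neighbours. No segment held more than 3 of them. Their 17 peaks scored from 13 to 28 with a median of 16. Of these, 7 were at or above the list median of 19 (50.9% of the whole list) and 0 scored above 100 (1.93% of the whole list). With 17 peaks the last count says little. The median of 16 lay below that of the list, where 44.4% of peaks scored 16 or less. With only peaks at or above the list median, 6 of the 15 sites were left. The sites were of similar width, from 43 to 63 nt. The 3 highest peaks, at positions 71061 to 71109, 84255 to 84317 and 113948 to 114002, scored 28, 27 and 25, and about 1 in 4 peaks of the list scored as high (24.3%, 25.4% and 26.8%).

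PTB UVA had 2 sites in PTBP3, at positions 73081 to 73120 and 101798 to 101830 (chromosome 9, 115022828 to 115022867 and 114994118 to 114994150), with scores of 194 and 168. Each met another list. The first shared 34 nt with a PTB UVC site at 73087 to 73129, which scored 16. The second shared 12 nt with a PTB iCLIP site of 88 nt at 101722 to 101809, which scored 198 and was the highest iCLIP peak of the gene.

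The other 6 PTB iCLIP sites of PTBP3 scored between 66 and 97, all above the list median of 47, which 50.7% of the whole list reached. They lay at positions 3156 to 3181, 22721 to 22759, 84189 to 84224, 93701 to 93730, 93916 to 93953 and 96676 to 96707. With the highest one, 4 of the 7 fell in the segment from position 92763 to 104358. The site at 93916 to 93953 (chromosome 9, 115001995 to 115002032), with a score of 71, overlapped the only YFP UVC site in the 3 genes, at 93937 to 94022 with a score of 17. Over the whole YFP UVC list 9.91% of sites overlapped a PTB iCLIP site. The iCLIP site at 84189 to 84224 ended 31 nt before a PTB UVC site that scored 27, the shortest distance between these lists in PTBP3.

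**Figure D5:**
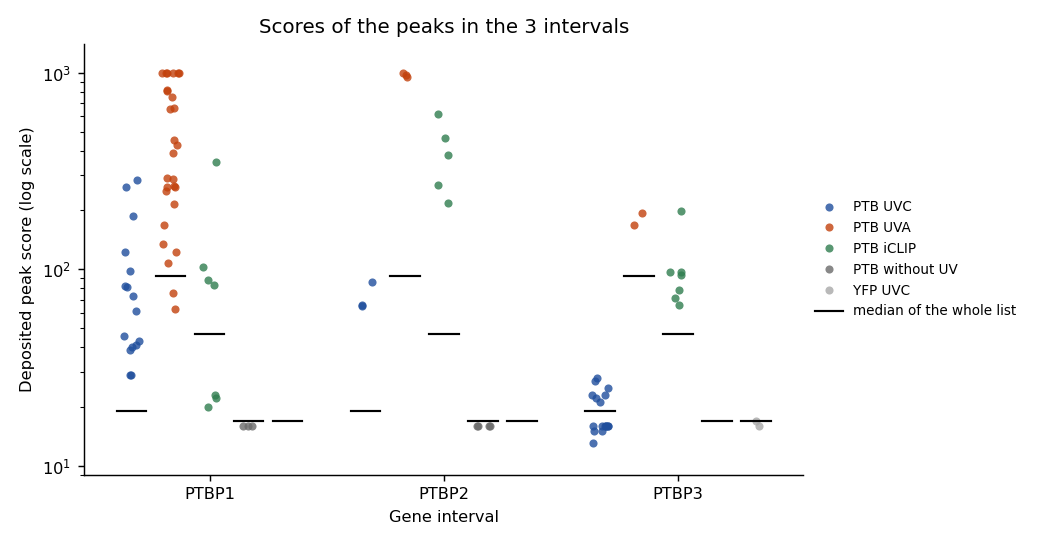
Each dot is the score of a peak on a log axis, by gene interval and list (4 PTB UVA peaks of PTBP1 deposited with a score of 0 are drawn at 1000), and black bars are the median score of the whole list (19 for PTB UVC, 92 for PTB UVA, 47 for PTB iCLIP, 17 for each control). PTB UVC peaks lie above their median in PTBP1 and PTBP2 and around it in PTBP3, where they score from 13 to 28.

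The lists were then compared, a site counting as shared when it had 1 nt or more in common with a site of the other list on its strand. PTB UVC and PTB UVA met mainly in PTBP1. There 8 of 13 PTB UVC sites overlapped a PTB UVA site (61.5%, interval 31.6 to 86.1), against 11.3% of all PTB UVC sites. In the other direction 7 of 12 PTB UVA sites of PTBP1 overlapped a PTB UVC site (58.3%, interval 27.7 to 84.8), against 12.6% of all PTB UVA sites. These intervals treat neighbouring sites of 1 transcript as independent. Yet the PTB UVC sites at 14643 to 14687, 14798 to 14850 and 15051 to 15175 all met the same PTB UVA site. PTB UVA peaks also covered 7.51% of PTBP1, all of them past its first 6516 nt. The part that such density plays in the shared sites was not tested. With these limits, both intervals lay above the share of the whole list. This depended on the overlap asked for: when at least 50% of a site had to be covered, 3 of 13 PTB UVC sites (23.1%, interval 5.04 to 53.8) and 3 of 12 PTB UVA sites (25.0%, interval 5.49 to 57.2) were shared, against 7.3% and 6.88% of the whole lists, values that lie inside these intervals. In PTBP3 1 of 15 PTB UVC sites overlapped a PTB UVA site (6.67%, interval 0.169 to 31.9), an interval that holds the 11.3% of the whole list. In PTBP2 the count was 1 of 3. Many contacts were partial: the 11 overlapping pairs of PTB UVC and PTB UVA sites in the 3 genes shared 1 to 84 nt, with a median of 34, and 2 pairs shared 1 nt.

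Overlap with PTB iCLIP rested on few sites. In PTBP1 3 of 6 PTB iCLIP sites overlapped a PTB UVC site (50%, interval 11.8 to 88.2), against 9.43% of all iCLIP sites, and 3 of 6 a PTB UVA site, against 25.3%. The first interval, which treats sites as independent, lay above the share of the whole list and the second holds it. Over the 3 genes 4 of 18 PTB iCLIP sites overlapped a PTB UVA site (22.2%, interval 6.41 to 47.6). A PTB UVC site was overlapped by 3 of 18 (16.7%, interval 3.58 to 41.4), an interval that holds the share of the whole list. It was 1 of 18 (5.56%) when at least 50% of the site had to be covered, and 1 of 16 (6.25%) when peaks scoring below the median of their list were left out. The share of the whole list was not computed at these settings. From the GoldCLIP side 4 of 16 PTB UVA sites (25.0%, interval 7.27 to 52.4) and 3 of 31 PTB UVC sites (9.68%, interval 2.04 to 25.8) overlapped an iCLIP site, against 19.0% and 6.25% of the whole lists. All 3 PTB UVC sites and 3 of the 4 PTB UVA sites with an iCLIP partner were in PTBP1.

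Sites in all 3 PTB lists were found in PTBP1 alone among the 3 genes. Of the 31 PTB UVC sites, 2 overlapped both a PTB UVA and a PTB iCLIP site (6.45%, interval 0.791 to 21.4), against 3.57% of the whole list: those at positions 14562 to 14594 and 14798 to 14850. Only the second held nucleotides common to all 3 lists, since at the first the UVA and iCLIP sites did not overlap. Of the 16 PTB UVA sites 3 overlapped both other lists (18.8%, interval 4.05 to 45.6), against 4.38%, and of the 18 PTB iCLIP sites 1 did, against 5.66%. Among these PTB UVA sites, those at 10459 to 10712 and 10744 to 10887 met the same PTB UVC site, at 10712 to 10761. That PTB UVC site itself overlapped no PTB iCLIP site. At the other end, 14 of 15 PTB UVC sites of PTBP3 met neither other PTB list (93.3%, interval 68.1 to 99.8), as did 4 of 13 in PTBP1 (30.8%, interval 9.09 to 61.4) and 86.1% of the whole list. The interval of PTBP1, which treats sites as independent, lay below the share of the whole list, and the part that site density plays was not tested. Over the 3 genes, for PTB UVA 6 of 16 sites met neither (37.5%, interval 15.2 to 64.6), against 72.8%, and for PTB iCLIP 12 of 18 (66.7%, interval 41.0 to 86.7), against 70.9%. When the peaks of the 3 PTB lists were joined, the genes held 47 combined regions. A combined region need not hold a nucleotide common to its lists. PTBP1 had 16, of which 3 were in all 3 lists and 4 in 2 lists. PTBP2 had 9, with 1 in 2 lists, and PTBP3 had 22, with 2 in 2 lists.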

How the data were processed

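Halo-PTB and Halo-YFP libraries of 293T cells followed the iCLIP way of making libraries, per the labels' protocols, and replicates were pooled or merged into 1 list per group before deposit. Mapping with Bowtie 1.1.2 and the builds dm3 and hg19 are named per the submitters' processing notes. The peak caller is not given in the sources used here. Peak scores and p-values are the authors', as deposited, except for the scores of 0 that were reset as described below. Of 59 member peaks with a p-value above 0, 58 scored 10 times its negative log10, rounded down. The other 37 of the 96 had a p-value of 0 and could not be checked, among them 27 of the 32 PTB UVA peaks. In PTB UVA this reading held for 4 of the 5 peaks that could be checked. The 4 member peaks listed with a score of 0 and a p-value of 0, all in PTB UVA, were set to the limit of 1000. The same was done for all such peaks of the whole lists: 538 in PTB UVA, 148 in PTB UVC, 104 in PTB iCLIP, 39 in YFP UVC and 0 in PTB without UV. Medians and shares of whole lists use these scores.

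Starts were written 1-based. Peaks within 20 nt were merged, and a site was shared if 1 nt or more of it lay in a site of the other list on its strand. Counts carry exact Poisson and shares exact Clopper-Pearson 95% intervals, which treat sites as independent. Counts were made with Python 3.11.15, numpy 2.4.6, pandas 2.3.3 and scipy 1.17.1, tested on simulated data and checked with bedtools 2.31.1, whose counts were equal in 20 of 20 ordered pairs of lists. The intervals came with the choice of genes, and members and rules were chosen with earlier results of these data known. Named sites were those in all 3 PTB lists, all control sites, the 3 highest peaks per gene and PTB list (ties by width, then start) and the fullest of 10 equal segments of each interval. Others were named after their values were seen. The windows were also set after the data were seen. Related genes and motifs were not analysed here, since no hg19 gene positions or sequence were used.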

Additional observations from a re-analysis of the deposited data

How the results depend on the processing

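Of 72 recomputed values that a setting could change, 67 stayed within 1.5 times the reported count or within the 95% interval of the reported share. With peaks at or above the median score of their list, PTBP3 kept 6 PTB UVC sites in place of 15, and 1 site was in all 3 PTB lists in place of 2. When at least 50% of a site had to be covered, 12.9% of PTB UVC sites lay in PTB UVA sites in place of 32.3%, 25.0% of PTB UVA sites lay in PTB UVC sites in place of 56.2%, and 1 site was in all 3 lists. At this coverage the whole lists had 7.3% and 6.88%. The first value lies inside the interval of the 3 genes (3.63 to 29.8) and the second just below it (7.27 to 52.4). Both intervals treat sites as independent. The intervals of shares are wide: the 16.7% of PTB iCLIP sites in PTB UVC sites became 5.56% at 50% coverage and 6.25% with the median score, inside its interval. The matching share of the whole iCLIP list was not computed at either setting. Other merging distances (0 and 50 nt), midpoints within 50 nt of a site, peaks as deposited and peaks on control peaks left out moved no value past these limits, nor did peaks wider than 20 nt, which with control peaks left out of the overlaps was added after seeing the data. Strand ignored, midpoints inside the interval and intervals extended by 1000 nt (also added) could change nothing, since no peak lay on the opposite strand, across an edge or that near outside. No paired analysis was possible because each group is a single pooled list, and for the same reason no replicate could be left out. Depth is unknown, so a gene without a peak in a list may lie below what that list could detect.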

Other observations

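Few sites lay close to the genes outside their intervals. Beyond the ends of the PTBP2 interval, the nearest plus-strand site of any PTB list was 274267 nt away, in PTB UVA. For PTBP3 the nearest minus-strand PTB site was 51935 nt beyond the 3′ end, in PTB UVA, and 132848 nt beyond the 5′ end, in PTB UVC. RefSeq gives PTBP3 a span of 162168 nt in GRCh38.p14, which is 46215 nt longer than the interval used. That excess was taken to lie upstream, without comparing coordinates between the builds. The 46215 nt upstream of the interval held 0 peaks in each of the 5 lists. For PTBP1 the nearest PTB sites were 13618 nt past the 3′ end and 51333 nt before the 5′ end, both in PTB UVA.

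A like arrangement of sites was seen in 1 PTB UVA region of PTBP1 and 1 of PTBP2 that reach the score limit. A PTB UVC site of 50 nt in PTBP1 and of 33 nt in PTBP2 lay between neighbouring PTB UVA sites. Each shared 1 nt with the edge of a UVA site. On its other side the PTBP1 site shared 18 nt with the next UVA site, while the PTBP2 site was 37 nt from it. The PTB UVA site of PTBP1 at positions 14668 to 15134 also reached the limit but differed. There a PTB UVC site of 53 nt, at 14798 to 14850, lay wholly inside the UVA site. The arrangement was noticed in the data and not tested.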
